A study of Mus musculus with 24 samples.

Results

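Leukemias that arise in mice of one genotype need not resemble each other. The spread of each gene between Pax5+/- leukemias was compared here with its spread between preleukemic samples of that genotype. For every named gene the standard deviation (SD) was taken over the 10 leukemic Pax5+/- arrays and over the 7 preleukemic Pax5+/- arrays, which are 17 of the 24 arrays of the series. Group means were not compared. Of 19938 named genes, 15647 were bright enough on at least 3 arrays to be tested. Values are deposited log2 signals, so an SD of 1 means that arrays typically lay 1 doubling from their group mean.

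All 24 mice had been irradiated with 2 Gy. The leukemic samples are of Pax5+/- mice, which carry 1 functional allele of Pax5, or of wild-type (WT) mice. Their labels name B cells of leukemic marrow, whereas the series' design text calls the material tumor-bearing marrow, and neither says how cells were isolated. Preleukemic samples were pro/pre-B cells from the marrow of Pax5+/- mice or WT mice. The 4 leukemic WT and 3 preleukemic WT arrays serve only as a comparison of spread. The labels carry a time of 3 weeks for all samples, leukemic ones included, and give no age. Each array is a separate mouse, numbered as in its label, and "leukemia 2" below means leukemic Pax5+/- array 2. Genes of other marrow lineages were nevertheless measured above background in leukemic samples, as described below. The cell mixture and the disease stage cannot be told apart in any difference of spread. In bulk samples, fewer cells of a type and less RNA per cell cannot be told apart either. By the sex-linked genes Xist and Eif2s3y, both Pax5+/- groups mixed the sexes. Xist was between 12.1 and 12.49 in leukemias 1, 3, 4, 5 and 9 and at most 6.55 in the others. On preleukemic Pax5+/- arrays 4, 5 and 7 it was at least 11.98, and at most 6.12 on the others. Its WT values were at least 12.03 in leukemia and at most 5.62 before it, so sex and stage coincide there. The part of sex in the spread was not tested.

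Pax5 is a transcription factor that commits lymphoid precursors to the B lineage and keeps genes of other lineages silent. Loss of 1 allele predisposes to B-cell precursor leukemia, which needs further hits, often in cytokine receptor, JAK or STAT genes that signal for growth. Each such leukemia grows from a single cell, so leukemias of different mice can carry different further hits.

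Given the B-cell labels, the signals of 3 lists of B-lineage genes were looked up. In all 10 leukemias, 19 of 21 pro-B and pre-B genes, 21 of 22 genes that Pax5 activates and 13 of 15 mature B-cell genes were above the dim level, the 30th percentile of each array. On all 7 preleukemic arrays every one of these genes was above it. In all 10 leukemias so were 16 of 19 granulocyte genes and 14 of 14 stromal, endothelial and matrix genes. The shares were lower for NK and cytotoxic genes, 5 of 11, and for mast-cell, basophil and eosinophil genes, 5 of 10. These counts therefore do not set B cells apart from all other marrow cells. Cd79a, which encodes a signalling chain of the B-cell receptor, lay between 10.99 and 12.28 with a median of 11.47. Il7r, the receptor for the growth factor of B-cell precursors, lay between 11.68 and 12.64. These were among the steadier B-lineage genes, with SDs of 0.39 and 0.271, the latter 0.176 without leukemia 1. Ms4a1, the CD20 antigen of later B cells, was instead at 5.17 to 6.63, against 8.02 to 9.21 before leukemia, and Rag2, of the antibody gene recombinase, ran from 5.18 to 8.88 against 8.73 to 9.41. Rag2 was at 8.88 in leukemia 2 and at most 6.84 in the others, and its SD of 1.08 was 0.563 without leukemia 2. Of these genes, Cd79a, Il7r and Ms4a1 were picked after their values were seen, and Rag2 was named through its list. Cxcl10, Stat3, Il18rap, Fcmr and all genes marked so below were also picked after their values were seen. No 2 arrays of the series were copies of each other, since the highest correlation between arrays was 0.995 and the smallest root mean square difference was 0.179. Leukemia 1 accounted for 20.4% of the squared deviation among the 10 leukemias and leukemia 2 for 15.4%, against 5.76% to 10.6% for each of the others. SDs without either or both of these leukemias, an alternative added after the data were seen, stand below beside the results that moved by over 1.5 times.

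Leukemias varied more than preleukemic samples across most of the expressed genes. The SD was higher in leukemia for 10307 of the 15647 genes (65.9%), and the median SD was 0.17 among leukemias against 0.123 among preleukemic arrays. The median log2 ratio of the SDs was 0.38, with a jackknife standard error of 0.146 over arrays. The tail differed more than the median, since 286 genes had an SD above 1 among leukemias and 19 among preleukemic arrays. The 99th percentile of the SD was 1.21 and 0.492 in these groups. Without leukemias 1 and 2 the median log2 ratio was 0.23, the SD was higher in leukemia for 59.9% of genes, and 188 genes had an SD above 1. The WT arrays did not show the same order. Median SDs were 0.133 in the 4 leukemias and 0.151 in the 3 preleukemic samples, and 203 and 272 genes had an SD above 1. Preleukemic WT array 1 was unlike arrays 2 and 3, with a mean of 10.14 over 19 granulocyte genes against 6.36 and 6.41. Over 19 mitosis genes its mean was 9.83 against 7.81 and 7.98. What this array added to the preleukemic WT SDs was not tested.

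The excess depended on the level of the gene. Among 4157 genes with a mean below 6, close to background, the SD was higher in leukemia for 45.9%. For genes with a mean from 6 to 8 this share was 69.9%, from 8 to 10 it was 77.2%, and at 10 or above it was 72.1%. RMA, the method behind the values, compresses differences near background, so spread among dim genes is understated in both groups.

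**Figure D1:**
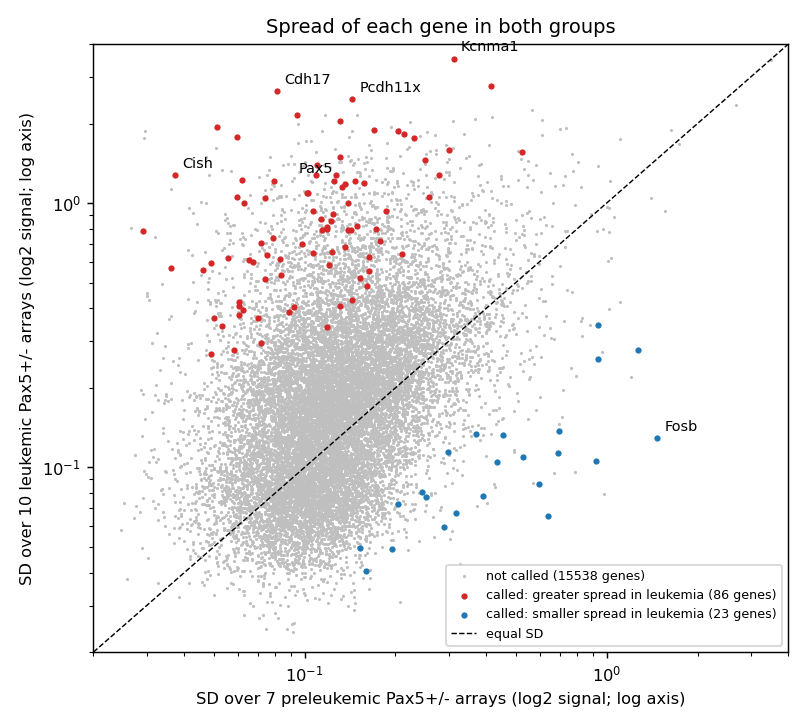
Standard deviation of each of the 15647 tested genes over the 10 leukemic Pax5+/- arrays (y axis) against that over the 7 preleukemic Pax5+/- arrays (x axis), both in log2 signal on log axes. The dashed line marks equal SD; 65.9% of genes lie above it, red points are the 86 genes called with greater spread in leukemia and blue points the 23 called with smaller spread.

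Few single genes passed a test of spread. A limma fit to the absolute deviations from the group mean called 86 genes with greater spread in leukemia (0.55% of those tested) and 23 with smaller spread (0.147%) at an adjusted p under 0.05. These tests measure the spread between the mice sampled. The 86 genes had a median SD of 0.798 in leukemia and 0.114 before it, and 21 of them were at or below the dim level on all 7 preleukemic arrays. The dim level ran from 5.18 to 5.35. Such a gene could enter the test only through leukemic Pax5+/- or WT arrays in which it is brighter, and its preleukemic SD is that of compressed background. The values of genes that were dim on 6 or 7 preleukemic arrays are therefore given below without a test. A single leukemia stood apart, as defined below, in 0 of the 86. In simulated data the limma fit missed most genes whose SD had been changed, and the fit by log2 deviations described next missed fewer, so a gene that was not called is not shown to be equally variable. A fit to the log2 of the deviations, added after the data were seen, called 1316 genes with greater spread (8.41%) and 101 with smaller spread (0.645%). It contained all 86 and all 23 genes of the first fit. Counts from it are given as "by log2 deviations" below.

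The count of 86 moved with single arrays. It was between 20 and 37 when any 1 preleukemic array was left out. It was 133 without leukemia 1, 179 without leukemia 4 and 174 without leukemia 5. The count of 23 with smaller spread was 10 without preleukemic array 1, 12 without array 4 and 10 without array 5.

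Several of the genes of largest spread were high in some leukemias and near background in others. A ranking by leukemic SD left out sex-linked genes, antigen receptor segments and predicted genes. Its top 12 were Kcnma1, Rnase12, Cdh17, Pcdh11x, Ly6g, Mrgpra1, Serpinb9d, Kir3dl1, S100a9, H2-Ea, S100a8 and Kir3dl2. Of the sex-linked genes, Xist had an SD of 3.48 in leukemia and 3.49 before it, and Eif2s3y of 2.35 and 2.69. Kcnma1, the pore of the large-conductance calcium-activated potassium channel, had the largest SD of all tested genes. Its values ran from 4.95 to 13.4 with a median of 12.73 in the 10 leukemias, and from 5.14 to 5.99 with a median of 5.39 in the 7 preleukemic arrays. It was near background in leukemias 1 and 4, intermediate in leukemia 8 at 7.15, and at 10.9 or above in the other leukemias, so the groups overlapped only through leukemias 1 and 4. The SDs were 3.52 and 0.312 (adjusted p = 0.0442, limma on deviations). The call was lost without any 1 preleukemic array, without leukemia 1, 4 or 8, and with no filter on dim genes. Of the 7 preleukemic arrays, 3 were at the dim level for Kcnma1. In the 4 WT leukemias Kcnma1 was high throughout, from 12.55 to 13.38, with an SD of 0.361. The 3 preleukemic WT arrays were at 5.57, 8.5 and 13.34, so Kcnma1 was also high in 1 sample taken before leukemia.

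Cdh17, a cadherin of intestinal and B-lineage cells, and Pcdh11x, a protocadherin of the X chromosome, divided the leukemias in different ways. Cdh17 ran from 4.95 to 11.87 in leukemia with a median of 9.35, against 4.8 to 5.05 before it. It was at least 10.02 in leukemias 1, 3, 4, 5 and 6, 8.69 in leukemia 9, and at most 6.83 in leukemias 2, 7, 8 and 10. Its SD was 2.66 against 0.0812, with all 7 preleukemic arrays at the dim level. Pcdh11x was between 8.63 and 9.67 in leukemias 3, 4, 5, 9 and 10 and between 4.43 and 4.61 in the remaining leukemias. Of the leukemias with high Pcdh11x, only leukemia 10 had low Xist (5.5). Leukemia 1 had low Pcdh11x with Xist at 12.1. For Pcdh11x, the 7 preleukemic arrays lay between 4.43 and 4.87, and the 4 WT leukemias between 4.26 and 4.55. The SDs were 2.48 and 0.144, and all 7 preleukemic arrays were at the dim level for this gene too.

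Other genes were on in a minority of leukemias. Serpinb9d, of a family of granzyme inhibitors, was at 9.15 in leukemia 1, 8.72 in leukemia 8 and 9.71 in leukemia 10, and at most 5.41 in the others. Preleukemic arrays lay between 4.28 and 4.53. The SDs were 2.16 and 0.0947, again with every preleukemic array at the dim level. Kir3dl1 and Kir3dl2, killer immunoglobulin-like receptors with closely related sequences that probes may not tell apart, peaked together in leukemias 7, 8 and 9. Kir3dl1 was at 9.68, 9.4 and 9.57 there and at most 7.37 elsewhere, and Kir3dl2 was at 9.22, 8.72 and 9.53 there and at most 6.15 elsewhere. Both were at the dim level on all 7 preleukemic arrays. Rnase12, of the ribonuclease A family, was between 5.3 and 5.7 in leukemias 2, 4, 9 and 10, at 7.57 and 8.89 in leukemias 7 and 3, and between 10.49 and 12.25 in leukemias 1, 5, 6 and 8. Before leukemia it lay between 5.39 and 6.61 (SDs of 2.77 and 0.413, adjusted p = 0.0218, limma), and its call was lost without preleukemic array 1 or 5. Its SD in the WT leukemias was 3.26.

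**Figure D2:**
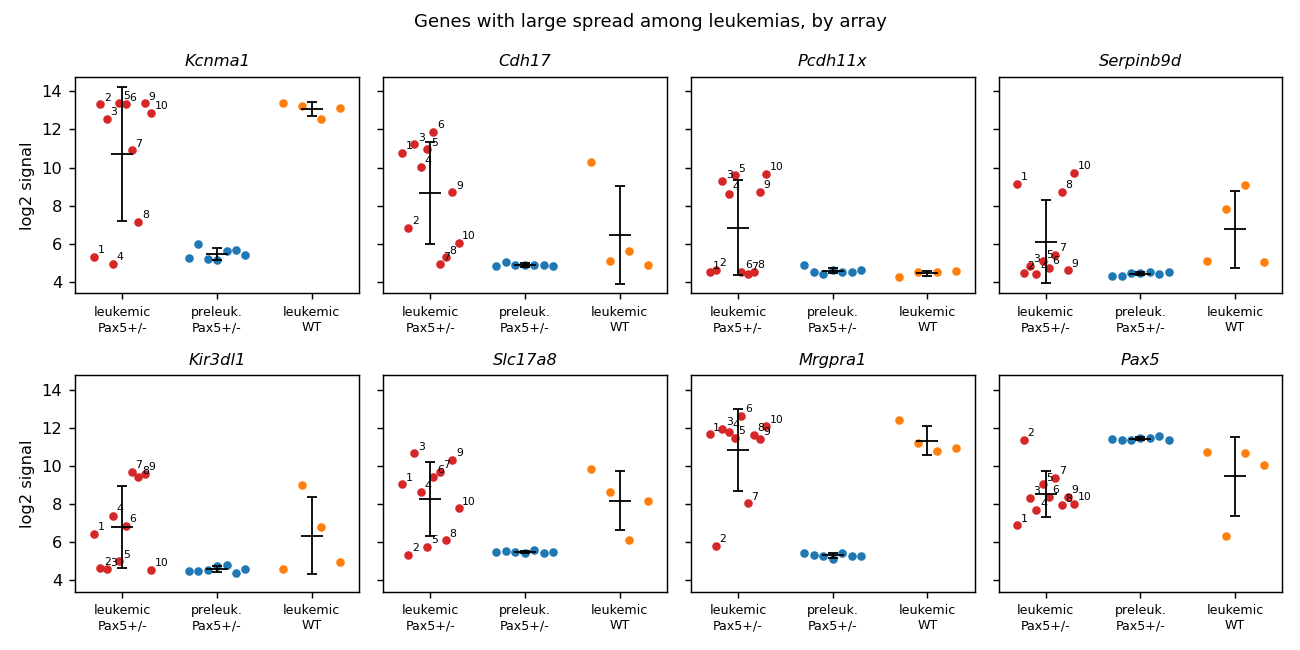
Log2 signal of 8 genes with large spread among leukemias, one panel per gene, with 1 point per array: 10 leukemic Pax5+/- (red, numbered), 7 preleukemic Pax5+/- (blue) and 4 leukemic WT (orange). Bars show the mean and SD of each group; Pcdh11x forms separate high and low sets of leukemias, and Pax5 in leukemia 2 (11.37) lies inside the preleukemic range of 11.34 to 11.59.

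At the margin set here, no tested gene was off on every preleukemic array and on in every leukemia. Some genes missed it in 1 leukemia only. Sh2d1b1, described below, was dim on all 7 preleukemic arrays, at 6.43 in leukemia 10 and at least 8.23 in the others. Of 384 tested genes at or below the dim level on all 7 preleukemic arrays, 0 lay at least 2 above it in all 10 leukemias. Of these 384, 55 lay at least 2 above the dim level in some leukemias and at or below it in others. The 384 passed the filter only through leukemic Pax5+/- or WT arrays, so this count is a description and not a test. For 31 of the 55 only 1 leukemia was high, and that was leukemia 1 for 20 of the 31. Conversely, 6 genes at least 2 above the dim level on all preleukemic arrays were at or below it in some leukemias. The total of genes so far above the dim level is not given, so the 55 and the 6 cannot be compared. One of the 6 was Lgr5, a receptor of Wnt signalling chosen after its values were seen. It lay between 8.04 and 8.86 before leukemia, at 6.3 in leukemia 2, and within the dim range in 8 of the other leukemias, with an SD of 0.364 that was 0.0503 without leukemia 2.

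Pax5 itself varied among the leukemias. Its values ran from 6.87 in leukemia 1 to 11.37 in leukemia 2 with a median of 8.34, and from 11.34 to 11.59 with a median of 11.4 before leukemia. Leukemia 2 alone lay within the preleukemic range, and the other 9 leukemias lay below it. The SD was 1.22 among leukemias and 0.0908 among preleukemic arrays, a ratio of 13.4. An exact two-sided permutation test of the deviations over 19448 reassignments gave p = 0.0104, and p ran from 0.00175 to 0.0267 when single arrays were left out. Without leukemia 2 the leukemic SD was 0.735 (exact p = 0.0166). Adjusted over all genes the limma fit did not call it (adjusted p = 0.19), whereas the fit by log2 deviations did (adjusted p = 0.00024). In the WT leukemias, which have both alleles, Pax5 ran from 6.34 to 10.74 with an SD of 2.1.

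Genes that Pax5 is known to activate varied too. Of 22 such genes tested, 21 had a higher SD in leukemia, 2 were called by the limma fit and 11 by log2 deviations, with median SDs of 0.562 and 0.161. Over all genes tested, 65.9% had a higher SD in leukemia, 0.55% were called by the limma fit and 8.41% by log2 deviations, and the counts for this and the lists below stand against those shares. One of the called genes was Cd72, an inhibitory B-cell co-receptor. It ran from 5.96 to 10.74 in leukemia and from 11.78 to 12.39 before it, with SDs of 1.83 and 0.213 (adjusted p = 0.0375, limma). Its lowest values, 5.96 to 6.03, were in leukemias 7, 8 and 10, in which Pax5 was 9.38, 7.92 and 8. The mean of the list ran from 7.95 in leukemia 10 to 8.96 in leukemia 2. Ebf1, a B-lineage factor that acts with Pax5 and was chosen after its values were seen, ran from 10.23 to 11.51 with an SD of 0.365, or 0.234 without leukemias 1 and 2. Of 21 pro-B and pre-B genes 19 had a higher SD in leukemia and 8 were called by log2 deviations, with median SDs of 0.505 and 0.191. Without leukemias 1 and 2 the leukemic median of this list was 0.282, and 15 of the 21 had the higher SD in leukemia.

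Of 15 stem and progenitor genes, a list that holds Kit and Flt3, 10 had a higher SD in leukemia (medians of 0.293 and 0.14), 0 were called by the limma fit, 2 by log2 deviations, and 4 had an unadjusted p under 0.05 with greater spread. Kit, the stem cell factor receptor, ran from 7.26 to 11.62 with a median of 8.08, against 6.4 to 6.74 before leukemia. It was highest in leukemias 10, 9 and 1, at 11.62, 10.23 and 9.87. Flt3, the FLT3 ligand receptor, ran from 9.27 to 13.28 with its highest value in leukemia 4, against 5.61 to 6.83 before leukemia. Their SDs were 1.51 and 1.11 in leukemia, and neither was called by the limma fit (adjusted p = 0.0835 and 0.391). Il2ra, the interleukin-2 receptor alpha chain, was between 12.1 and 12.45 before leukemia and spread from 8.69 in leukemia 9 to 12.19 in leukemia 6 (SDs of 1.21 and 0.125, adjusted p = 0.0463, limma).

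Cish and Socs2, feedback inhibitors that cytokine signalling through STAT5 induces, separated the leukemias into a high and a low set. Cish was at 9.15, 8.71, 9.62 and 8.13 in leukemias 7 to 10 and between 6.12 and 7.2 in leukemias 1 to 6. The preleukemic arrays were confined to 6.32 to 6.42. The SDs were 1.28 and 0.0373, a ratio of 34.4 (adjusted p = 0.0218, limma). Socs2 was between 11.69 and 12 in leukemias 7 to 10, at 10.79 and 10.56 in leukemias 4 and 5, and between 7.96 and 8.92 in leukemias 1, 2, 3 and 6. Before leukemia it lay between 7.62 and 8.42 (SDs of 1.59 and 0.3, adjusted p = 0.0314, limma). The WT leukemias were divided as well, since WT leukemias 2, 3 and 4 had Socs2 between 12.11 and 12.43 and WT leukemia 1 had 7.72. The call for Cish was lost without preleukemic array 1 and without leukemia 7 or 8, and that for Socs2 without any 1 preleukemic array and without leukemia 1, 2, 3 or 6.

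Genes of the pathway itself stood apart in single leukemias, 1 with high Cish and 1 without. Jak1, Stat5a and Stat5b, chosen after their values were seen, encode the kinase and the transcription factors of this pathway. Stat5a was at 9.88 in leukemia 6 and between 7.89 and 8.12 in the other 9, and Stat5b was at 11.08 in leukemia 6 and between 8.25 and 8.99 in the others. These genes are neighbours and have similar sequences, so the probes may share some signal. The next gene, Stat3, was at 10.28 in leukemia 6, inside the range of the others (9.45 to 10.62), and so were the remaining genes within 3 places of Stat5a. Cish in leukemia 6 was 6.37, inside the preleukemic range. WT leukemias 2 and 3 also had high Stat5b, at 10.83 and 10.69, with Cish at 8.9 and 7.88. WT leukemias 1 and 4 had Stat5b at 8.4 and 8.5 and Cish at 6.66 and 9.48, so the highest Cish of the WT leukemias was in one with low Stat5b. Jak1 was at 12.56 in leukemia 7, a leukemia with high Cish, and between 10.2 and 10.75 in the other 9. Before leukemia it lay between 10.22 and 10.62. Of the genes within 3 places of Jak1, Cachd1 in leukemia 7 lay 0.66 and Raver2 0.11 above the highest of the other leukemias, and the others lay inside their range. Neither the limma fit nor that by log2 deviations called Jak1, Stat5a or Stat5b (adjusted p from 0.402 to 0.489 and from 0.0895 to 0.479).

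**Figure D3:**
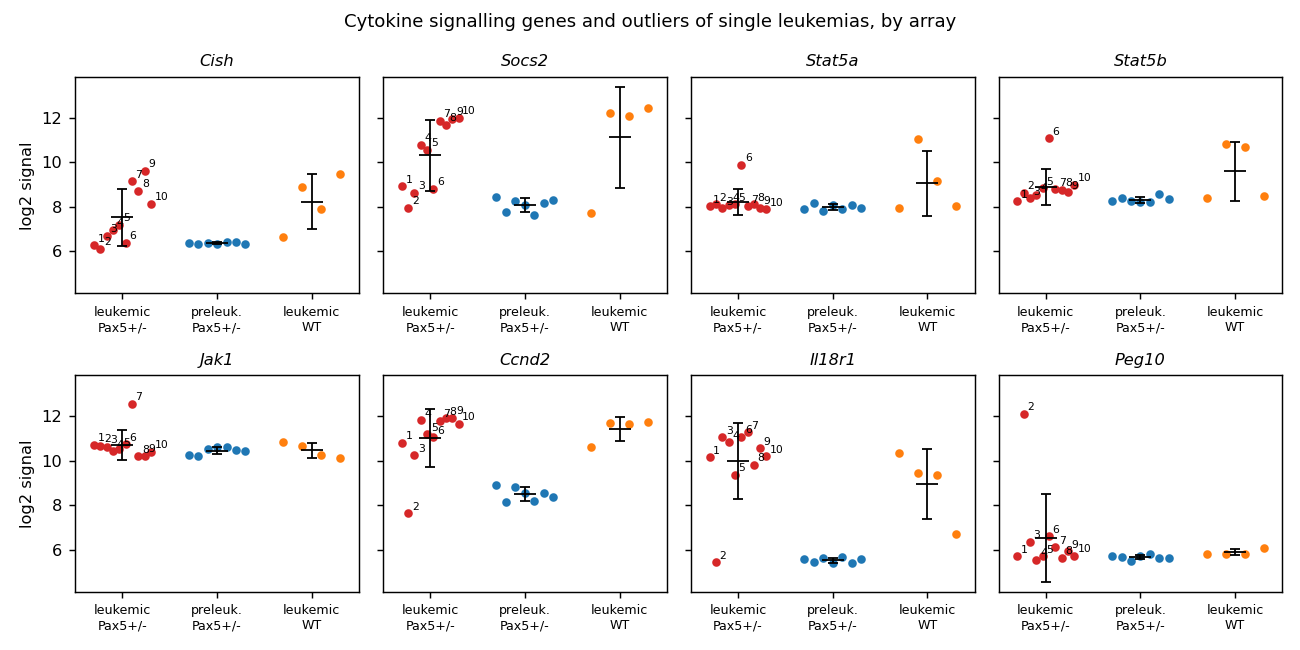
Log2 signal of 8 genes in the 10 leukemic Pax5+/- arrays (red, numbered), the 7 preleukemic Pax5+/- arrays (blue) and the 4 leukemic WT arrays (orange), with bars for the mean and SD. Cish and Socs2 are high in leukemias 7 to 10, whereas Stat5a and Stat5b stand apart in leukemia 6, Jak1 in leukemia 7, and Ccnd2, Il18r1 and Peg10 in leukemia 2.

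Many of the highly variable genes went together with others. The 200 genes of largest leukemic SD had a median SD of 1.39 in leukemia and 0.19 before it. Their median SD in the WT leukemias, which played no part in choosing them, was 0.882 against 0.133 for all genes, and 83% of them were above the 90th percentile of WT leukemic SD. Clustering of the 200 genes by their correlation over the 10 leukemias placed 170 of them in 10 groups of at least 5 genes. At a branch height of 0.3 rather than 0.5, 108 genes were in groups, also 10 in number. Clustered without leukemias 1 and 2, the same 200 genes had a median SD of 1.19 and gave 13 groups with 178 genes. The groups are a description of the arrays that formed them and were not tested.

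The largest group held 44 genes, of which 13 were on a list of granulocyte genes. Cdh17, described above, fell in this group too. S100a9, Ly6g and Elane encode a calcium-binding protein, a surface antigen and an elastase of granulocytes. S100a9 ran from 5.97 to 11.81 with a median of 9.21 in leukemia and from 6.26 to 7.37 before it, and Elane from 6.25 to 10.83 against 6.84 to 7.07. Leukemias 1 and 6 were highest for both genes, and leukemias 2, 7 and 9 lay inside or below the preleukemic range. The SDs were 2.12 and 0.419 for S100a9, and 1.51 and 0.0899 for Elane, which was chosen after its values were seen. All 19 granulocyte genes tested had a higher SD in leukemia, with a median of 1.47 against 0.163. The limma fit called 0 of them, although all 19 had an unadjusted p under 0.05, and the fit by log2 deviations called 18. Over all genes tested, 2331 had such an unadjusted p with greater spread in leukemia. The list mean was 10.29 in leukemia 6 and 9.86 in leukemia 1, between 7.47 and 8.35 in leukemias 3, 4, 5, 8 and 10, and between 6.06 and 6.65 in leukemias 2, 7 and 9. Before leukemia it lay between 6.05 and 6.59 in Pax5+/- mice. Among the preleukemic WT arrays it was 6.36 and 6.41 on arrays 2 and 3 but 10.14 on array 1, as high as in leukemias 1 and 6, with S100a9 at 12.07 and Ly6g at 11.88.

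Genes of other marrow lineages followed the granulocyte genes in part. The mean of 9 platelet and megakaryocyte genes ran from 7.56 in leukemia 8 to 10.13 in leukemia 6 and 10.36 in leukemia 7, which are the leukemias with the highest and the lowest granulocyte mean. Their median SD was 0.829 in leukemia and 0.191 before it, and 5 were called by log2 deviations. The mean of 14 stromal, endothelial and matrix genes was lowest in leukemia 8, at 7.31, and between 7.89 and 8.68 in the others. Of 17 monocyte and macrophage genes all had a higher SD in leukemia (median 0.819 against 0.153), and 12 were called by log2 deviations. Their mean was highest in the same leukemias as that of the granulocyte genes, at 9.28 in leukemia 1 and 8.4 in leukemia 6, and was between 7.05 and 8.35 elsewhere. Erythroid genes differed less in the Pax5+/- leukemias, with a median SD of 0.307, than in the WT leukemias, where it was 1.46. The part these cells had in the spread of other genes was not tested.

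The second group held 37 genes and was led by leukemia 1. It contained genes of MHC class II, the molecules that present peptides to helper T cells, together with their master regulator Ciita and the interferon-induced chemokines Cxcl9 and Cxcl10. Transcription of class II genes depends on a promoter module whose Y box binds the factor NF-Y and on which CIITA is recruited. The promoters of 2 members are shown because their genes moved together across the leukemias. The 250 bases before the gene start are from RefSeq (GRCm38.p6), 5' to 3' on the gene's strand, with the Y box CTGATTGG in capitals. H2-Aa lies on the minus strand, at chr17:34287824-34288073, and H2-Eb1 on the plus strand, at chr17:34305617-34305866.
H2-Aa: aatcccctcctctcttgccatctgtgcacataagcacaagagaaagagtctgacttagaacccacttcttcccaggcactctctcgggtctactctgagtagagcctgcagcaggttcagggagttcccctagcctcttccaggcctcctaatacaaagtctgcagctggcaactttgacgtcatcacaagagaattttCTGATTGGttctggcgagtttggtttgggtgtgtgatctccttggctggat
H2-Eb1: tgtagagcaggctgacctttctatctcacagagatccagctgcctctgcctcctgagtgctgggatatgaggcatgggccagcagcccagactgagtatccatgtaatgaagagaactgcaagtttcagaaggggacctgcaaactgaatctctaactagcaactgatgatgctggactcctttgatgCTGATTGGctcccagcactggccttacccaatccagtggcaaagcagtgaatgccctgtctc
Searched on both strands, CTGATTGG occurred in 3.83% of 32851 promoter windows of this length and in those of 3 of the 7 class II genes in the table. Another motif, TTCNNNGAA, was searched for the co-varying group that holds Cish, described below. It occurred in 7.02% of the windows and in 1 of 17 genes of that group, Kir3dl1, and not in Cish. Both printed genes had their highest value in leukemia 1 and their lowest in leukemia 2.

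H2-Aa, a class II alpha chain, ran from 8.44 to 12.55 with a median of 10.16 in leukemia and from 10.04 to 11.05 before it. H2-Eb1, a beta chain chosen after its values were seen, ran from 8 to 12.05 with a median of 9.32, and from 7.93 to 9.83 before leukemia. Ciita, chosen in the same way, was at 9.73 in leukemia 1 and between 5.94 and 7.88 in the others, and its SD of 1.16 was 0.632 without leukemia 1. The groups overlapped for all of these genes, and none was called by the limma fit (adjusted p from 0.0997 to 0.371). H2-Ea, another alpha chain, had a different extreme, at 5.77 in leukemia 5 and between 8.87 and 12.99 elsewhere (SDs of 2.08 and 0.366, adjusted p = 0.167, limma). Without leukemia 5 its SD was 1.36. On preleukemic WT array 1 H2-Ea was also low, at 5.9, against 11.97 and 11.22 on arrays 2 and 3. Of 8 class II genes all had a higher SD in leukemia, with a median of 1.23 against 0.425, and their mean was 11.15 in leukemia 1 and 8.1 to 9.67 in the other 9. Without leukemias 1 and 2 the median SD was 0.902 and 7 of the 8 had the higher SD, and the SD of the list mean fell from 0.951 to 0.634 without leukemia 1. Cxcl9 was at 11.92 in leukemia 1 and at most 8.15 in the others, and its SD without leukemia 1 was 0.702. WT leukemia 2 also had a high Cxcl9, at 10.67.

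The third group joined Cish and Socs2 with Kir3dl1, Kir3dl2, Jchain and Ly6d. Its 20 genes were on average 0.79 to 1.66 above the leukemic mean in leukemias 7 to 10 and at -2.18 relative to it in leukemia 2. Jchain, the joining chain of polymeric antibodies, was between 11.97 and 12.11 in leukemias 7 to 10 and between 7.16 and 11.33 in leukemias 1 to 6. Before leukemia it lay between 4.83 and 5.45, so the groups did not overlap (SDs of 1.88 and 0.203, with 6 of 7 preleukemic arrays at the dim level). Without leukemias 1 and 2 the leukemic SD of Jchain was 1.29. Ly6d, a surface marker of B-committed precursors, was at 6.3 in leukemia 6 and 8.31 in leukemia 2 and at least 10.62 in the others. In the WT leukemias, where the group was not defined, its mean relative to the Pax5+/- leukemic mean was -1.08 in WT leukemia 1 and 0.58 to 1.36 in the others.

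The fourth and sixth groups set leukemia 2 apart in opposite directions. The 19 genes of the fourth group deviated on average by -3.31 from the leukemic mean in leukemia 2 and by -0.14 to 0.84 in the other 9. Mrgpra1, a Mas-related G-protein-coupled receptor, was at 5.81 in leukemia 2, 8.04 in leukemia 7 and at least 11.42 elsewhere, against 5.09 to 5.44 before leukemia. Il18r1 and Il18rap, neighbouring genes for the chains of the interleukin-18 receptor, were at 5.42 and 6.77 in leukemia 2. In the other leukemias Il18r1 was at least 9.36 and Il18rap at least 9.3. Ccnd2, a D-type cyclin that drives entry into S phase, was at 7.64 in leukemia 2 and between 10.25 and 11.94 in the others, against 8.14 to 8.93 before leukemia. Without leukemia 2 the SD of Il18r1 was 0.644 rather than 1.71, that of Ccnd2 0.591 rather than 1.31, that of Il18rap 0.508 rather than 1.16 and that of Mrgpra1 1.31 rather than 2.16.

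The 10 genes of the sixth group, Pax5 among them, were on average 3.44 above the leukemic mean in leukemia 2. Peg10, an imprinted gene of retrotransposon origin expressed from the paternal allele, was at 12.11 in leukemia 2 and between 5.53 and 6.59 in the other 9. Its neighbour Sgce, which is imprinted with it and was chosen after its values were seen, was at 9.67 and between 5.81 and 6.86. Without leukemia 2 the SD of Peg10 was 0.367 rather than 1.99 and that of Sgce 0.288 rather than 1.05. Genes farther along within 3 places were not above the range of the other leukemias in leukemia 2. Casd1 was below that range, at 7.65 against 8.46 to 9.1. Aqp11, a water channel, was high in leukemia 2 (11.13) and leukemia 4 (8.94) and between 5.66 and 5.97 elsewhere. Fcmr, the receptor for IgM and a mature B-cell gene, was at 9.62 in leukemia 2 and between 6.11 and 6.74 in the others, against 9.75 to 10.61 before leukemia. Without leukemia 2 the SD of Aqp11 was 1.05 rather than 1.87, and that of Fcmr 0.211 rather than 1.05. Leukemia 2 had the smallest distance to the preleukemic mean over all genes, a root mean square of 0.623 against 0.704 to 0.848 for the other leukemias. Of its 85 genes that stood apart, 17 lay within the preleukemic range.

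The smaller groups followed 1 to 4 leukemias each. The fifth, 13 genes with the adhesion molecule Dscam and the inhibitory receptor Pdcd1, was 1.92 and 1.94 above the leukemic mean in leukemias 1 and 3. Dscam was at 9.83 and 10.21 there, at most 7.94 elsewhere, and between 5.45 and 5.54 before leukemia. The seventh, 9 genes with Ctsg and Cd3g, was 3.36 above the mean in leukemia 4 and included the antibody light-chain segment Igkv5-43. Ctsg, the granule protease cathepsin G, was at 10.79 in leukemia 4, 10.5 in leukemia 6 and 10.18 in leukemia 3, so several leukemias were high in it. The eighth, 7 genes with the nuclear receptor Esrrb and the muscle-precursor factor Pax7, was 1.98 and 1.8 above it in leukemias 3 and 6. Pax7 ran from 6.63 to 9.93 in leukemia and from 6.32 to 6.71 before it (SDs of 1.28 and 0.127, adjusted p = 0.0108, limma).

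The ninth group, 6 genes, had a median SD of 0.0695 before leukemia and 1.61 in leukemia. Lvrn, Nr1h4 and Lrrc4c were at the dim level on all 7 preleukemic arrays and Slc27a2 on 4. The small SD before leukemia is thus in large part that of compressed background. Bst1 was instead between 10.05 and 10.58 before leukemia. Slc17a8, a vesicular glutamate transporter, ran from 5.33 to 10.66 with a median of 8.82 and had at least 8.62 in leukemias 1, 3, 4, 6, 7 and 9. Preleukemic arrays lay between 5.41 and 5.56, close above the dim level (SDs of 1.94 and 0.0514, adjusted p = 0.0375, limma). The call of Slc17a8 was lost in fits that left out 1 preleukemic array, such as array 1. Lvrn, an aminopeptidase, was at least 8.33 in leukemias 3, 6, 7 and 9 and at most 7.03 in the others, against 5.14 to 5.3 before leukemia (SDs of 1.77 and 0.0597, with all 7 preleukemic arrays at the dim level). Both groups of arrays overlapped at the low end. Nr1h4, the bile acid receptor, was at 9.57 in leukemia 3, 7.97 in leukemia 9 and at most 6.6 elsewhere. The tenth group, 5 genes with Themis, a T-cell selection factor, was 2.32 above the mean in leukemia 7 and 1.84 in leukemia 4. Themis was at 9.21 in leukemia 7, 8.06 in leukemia 3 and 6.99 in leukemia 4, and at most 6.04 in the others.

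**Figure D4:**
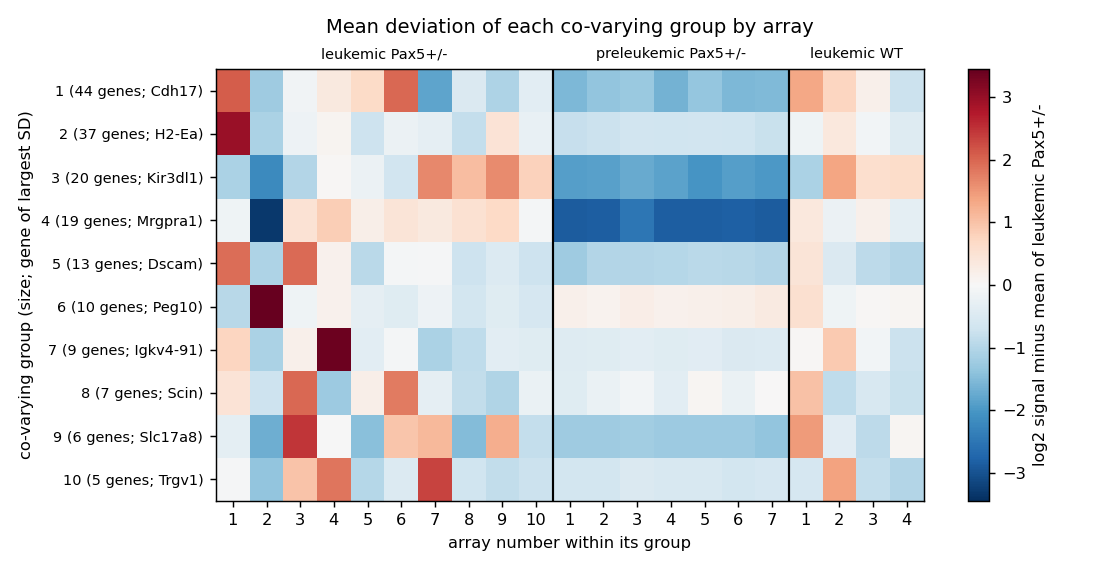
Mean deviation of the 10 co-varying groups (rows, with the number of genes and the gene of largest SD) on each array (columns), in log2 signal relative to the mean of the 10 leukemic Pax5+/- arrays. Red is above and blue below that mean; in leukemia 2, group 4 is at -3.31 and group 6 at 3.44, and group 2 is 2.98 above it in leukemia 1.

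Single leukemias stood apart in 320 genes (2.05% of those tested). A gene was counted when its extreme leukemia was separated from the nearest other by at least 1 on the log2 scale and by more than Dixon's 95% critical value for the share of the whole range. By the same rule 19 genes (0.121%) had a preleukemic array that stood apart. Of the 320, 152 had leukemia 1 as the extreme, 146 of them with leukemia 1 above the others. Leukemia 2 was the extreme in 85 genes, above the others in 42 and below in 43. Leukemia 3 had 23 and leukemia 4 had 15, and the remaining leukemias had 1 to 12 each, leukemia 5 the fewest. Without leukemias 1 and 2 the same count over 8 leukemias was 201.

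**Figure D5:**
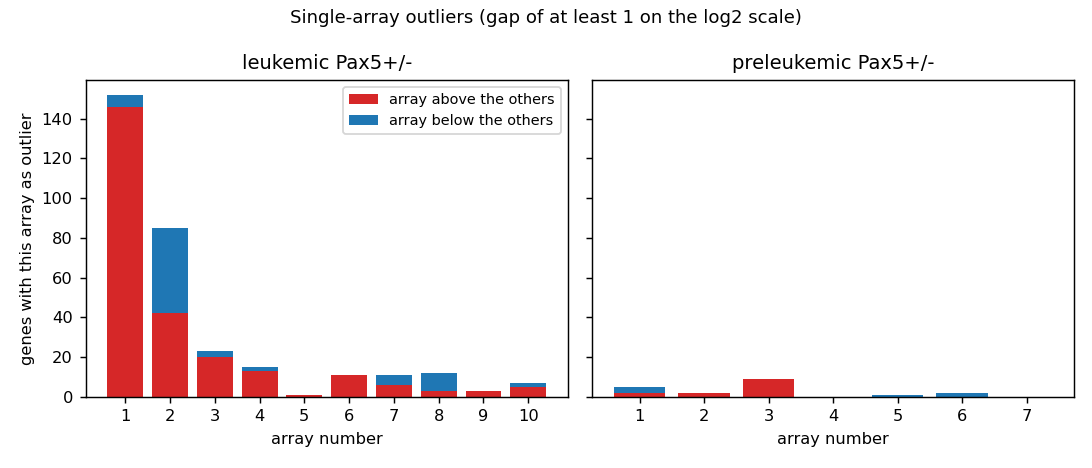
Number of genes in which one array stood apart from all others of its group by at least 1 on the log2 scale, for each leukemic (left) and preleukemic (right) Pax5+/- array, with red for arrays above and blue for arrays below the others. Leukemia 1 has 152 such genes and leukemia 2 has 85, against at most 23 in any other leukemia and at most 9 in any preleukemic array.

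Each leukemia had its own extremes. In leukemia 1, Septin3, a cytoskeletal GTPase, was at 9.95 against 5.58 to 6.07 in the others, with an SD of 1.33 that was 0.146 without leukemia 1, and Cxcl9 was described above. In leukemia 3, Plaur, the urokinase receptor, was at 10.61 against 6.88 to 8.13, and Apool, of the mitochondrial inner membrane, was low at 5.67 against 7.85 to 8.53. In leukemia 4, Dapl1 was at 9.86 against 5.1 to 5.8, and Slc7a1, a carrier of arginine and lysine, was at 12.18 against 8.93 to 9.55. These values lay outside the preleukemic range of each of these genes.

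In leukemia 5 the gene that stood apart was Ccr2, a monocyte chemokine receptor, at 9.3 against 5.18 to 7.09. In leukemia 6, Acta2, the actin of smooth muscle, was at 9.97 against 6.21 to 7.15, and Il1f9, an interleukin-1 family cytokine, was at 8.24 against 4.63 to 5.79. In leukemia 7, Ccnd1, the other variable D-type cyclin, was low at 8.08 against 10.53 to 12.47, and Ddc, the enzyme that makes dopamine and serotonin, was high at 9.11 against 5.57 to 6.98. Leukemia 7 also had the lowest means of the mitosis genes, 9.06, and of the DNA replication genes, 9.07. Ccnd1 in leukemia 7 nevertheless lay above its preleukemic range of 6.87 to 7.32.

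In leukemia 8, Timp3, a matrix protease inhibitor, and Fabp4, a fatty acid carrier of endothelium and fat, were low at 6.68 and 6.31, against at least 8.32 and 7.8 in the others. This is the leukemia with the lowest stromal, endothelial and matrix mean. In leukemia 9, Garem1, an adaptor of growth-factor signalling, was at 8.2 against 5.43 to 6.71, and Scn3a, a sodium channel, was at 6.59 against 4.41 to 5.38. In leukemia 10, Sim1, a developmental transcription factor, was at 8.35 against 5.3 to 6.44, and Sh2d1b1, an adaptor of NK-cell receptors, was low at 6.43 against 8.23 to 9.72. Trim12a, chosen after its values were seen, was low in leukemia 10 (5.58) and in preleukemic arrays 4 and 5 (5.74 and 5.7), and at least 7.33 on the other Pax5+/- arrays.

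Igkv5-43, a variable segment of the antibody kappa chain chosen after its values were seen, was at 9.38 in leukemia 4 and between 4.25 and 5.25 in the others, whereas the preleukemic arrays lay between 7.37 and 8.04. Leukemia 4 thus lay above and the other leukemias below the preleukemic range for Igkv5-43.

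The genes with smaller spread in leukemia were ones that varied before it. The 23 called genes had a median SD of 0.105 among leukemias and 0.433 among preleukemic arrays. Of these, 4 were at or below the dim level in at least 1 leukemia, 2 of them in all 10. Where a gene is dim in leukemia, its small SD there is that of compressed background. Fosb, an immediate-early transcription factor, lay between 6.09 and 6.46 in leukemia, and between 6.91 and 10.85 with a median of 9.65 before it. The groups did not overlap, and preleukemic arrays 1 and 4 were the lowest, at 7.32 and 6.91. The SDs were 0.129 and 1.47 (adjusted p = 0.0442, limma), and the call was lost without preleukemic array 1 or 4 and without any 1 of leukemias 2, 3, 6, 7, 8, 9 and 10. Of 20 immediate-early and heat-shock genes, 7 had a higher SD in leukemia, 1 was called with smaller spread by the limma fit and 4 by log2 deviations. The list mean was 7.9 and 7.77 on preleukemic arrays 1 and 4 and between 8.7 and 9.01 on the other preleukemic arrays. Il15, a lymphocyte growth factor, lay between 5.03 and 5.43 in leukemia and between 6.62 and 8.43 before it. It was at or below the dim level in 5 of the 10 leukemias. Its SDs were 0.137 and 0.695 (adjusted p = 0.0108, limma), and its call was lost without preleukemic array 3 or 5. H2bc8, a replication-dependent histone gene chosen after its values were seen, was at 10.02, 9.59 and 9.55 on preleukemic arrays 1 to 3, between 7.64 and 8.35 on arrays 4 to 7, and between 7.01 and 7.68 in leukemia. Its call (adjusted p = 0.00738, limma) was lost without preleukemic array 1, 2 or 3.

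T-lineage and Notch genes had median SDs of 0.65 in leukemia and 0.118 before it, and of 14 tested 1 was called by the limma fit and 7 by log2 deviations. Their list mean was highest in leukemias 1 and 4, at 7.51 and 7.42, and between 6.49 and 6.93 in the others. Cd3g, a chain of the T-cell receptor complex, ran from 5.35 to 9.68 in leukemia, with leukemia 1 highest, and from 5.33 to 6.19 before it. Of 24 signalling and regulator genes known from B-cell leukemia, 21 had a higher SD in leukemia (medians of 0.404 and 0.125), 2 were called by the limma fit and 6 by log2 deviations. Targets of p53, the DNA damage response factor, had median SDs of 0.244 and 0.122, and of 15 tested 0 were called by the limma fit, 5 by log2 deviations, and 7 had an unadjusted p under 0.05 with greater spread.

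Lists of growth and housekeeping genes did not all alike have greater spread in leukemia. Of 19 mitosis genes the median SD was 0.347 in leukemia and 0.248 before it, and of 20 DNA replication genes 0.275 and 0.273. Of these genes 0 were called by the limma fit, 0 by log2 deviations, and 0 had an unadjusted p under 0.05 in the limma fit. The 14 cytosolic ribosomal protein genes had median SDs of 0.0815 and 0.0731, and 6 of them had the higher SD in leukemia. Rpl10, a large-subunit protein, had the lowest leukemic SD among genes with a leukemic mean above 9, at 0.0325, with values from 13.2 to 13.3, and 0.0196 without leukemia 1. The 17 MYC target and ribosome biogenesis genes had medians of 0.299 and 0.157, with 14 higher in leukemia, 0 called by either fit and 1 at an unadjusted p under 0.05 with greater spread. Of 12 glycolysis genes 10 had the higher SD in leukemia (medians of 0.276 and 0.124), 0 were called by the limma fit, 2 by log2 deviations, and 6 had an unadjusted p under 0.05 with greater spread. Of the cholesterol synthesis genes 11 of 12 had a higher SD in leukemia, with medians of 0.394 and 0.142, and 1 was called by the limma fit and 6 by log2 deviations. Interferon response genes, 15 tested, had median SDs of 0.555 and 0.212. Usp18, an interferon-induced protease, ran from 6.49 in leukemia 2 to 10.87 in leukemia 1 against 6.66 to 7.39 before leukemia (SDs of 1.45 and 0.25, adjusted p = 0.0401, limma), and its call was lost without any 1 preleukemic array and without leukemia 2, 6, 7, 8 or 9.

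Losing a call was common among the named genes. Of 19 genes named here that the limma fit called, between 9 and 14 lost the call when 1 preleukemic array was left out, and between 1 and 8 when 1 leukemia was. Pax7 kept its call in each of these 17 fits, and so did Pcdh11x, Cdh17 and Snx7, which were dim on 6 or 7 preleukemic arrays and whose tests are not given here. Snx7, a sorting nexin of endosomes, ran from 5.22 to 7.42 in leukemia and from 5.21 to 5.29 before it (SDs of 0.784 and 0.0291).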

How the data were processed

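Messenger RNA of 24 irradiated mice was measured on 1-colour mouse gene arrays, 1 array per mouse. The deposited values are log2 signals made by the authors, with RMA and oligo named in the submitters' processing notes (with no version in the sources used here). The table holds 35556 probe sets, and values ran from 3.48 to 14.2. Probe sets with 1 gene symbol in the platform table (21789) gave 19938 genes, and a gene with several took the one of highest mean. Genes reaching the 30th percentile of the array on at least 3 arrays were tested. That percentile is called the dim level.

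Samples were grouped by stage and genotype in their labels. Deviations from the group mean, scaled for group size, were fitted with limma 3.58.1 (R 4.3.3) by lmFit and eBayes, with 15 residual degrees of freedom and a prior of 2.07, two-sided with Benjamini-Hochberg adjustment over 15647 genes and called at 0.05. SDs were computed in Python 3.11.15 and pandas 2.3.3. Fits were tested on simulated data, where the limma fit recovered few and the fit to log2 deviations more of the genes given an unequal SD. Groups of co-varying genes came from average linkage on 1 minus the Pearson correlation (scipy 1.17.1, height 0.5). Alternatives varied the filter, the scaling, the probe set rule, the deviation, the arrays fitted and each left-out array.

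Replicate numbers did not pair the samples, since same-numbered arrays correlated between -0.13 and 0.0091. Named genes were Pax5, the 12 of largest leukemic SD, up to 8 called at either end of the SD ratio, 2 outliers per leukemia, up to 3 members of each of 26 lists, up to 6 of each co-varying group and the 6 of lowest SD with a mean above 9. The lists and the comparison were chosen with earlier results of these data known. No detection calls, batches or genome were used. Sex-linked genes, antigen receptor segments and predicted genes were left out of these rankings.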

Additional observations from a re-analysis of the deposited data

Results flagged for a closer look

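Among the genes and lists named above, 1 array stood apart in 46 instances. The ratio given for each is the gap of the extreme array to its nearest neighbour over the whole range of the group, above Dixon's 95% critical value. Chance flags about 1 in 20 groups, and most of these genes were named because an array stood apart, so the number of instances is not a result.

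Leukemia 1 was high in Septin3 (0.889), Cxcl10 (0.841), Cxcl9 (0.612) and Ciita (0.488), and in the mean of the MHC class II genes (0.487) and of the NK and cytotoxic genes (0.552). Leukemia 2 was high in Lgr5 (0.889), Peg10 (0.839), Fcmr (0.82), Sgce (0.726) and Rag2 (0.552). It was low in Il18r1 (0.672), Il18rap (0.655) and Ccnd2 (0.607). Leukemia 3 was high in Plaur (0.666) and Esrrb (0.488) and low in Apool (0.761). Leukemia 4 was high in Dapl1 (0.852), Slc7a1 (0.809) and Igkv5-43 (0.806), and leukemia 5 in Ccr2 (0.537).

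Leukemia 6 was high in Stat5a (0.88), Acta2 (0.751), Stat5b (0.736) and Il1f9 (0.679). Leukemia 7 was high in Jak1 (0.768) and Ddc (0.601), and in the mean of the B-leukemia signalling and regulator genes (0.541), a list that holds Jak1. It was low in Ccnd1 (0.557) and in the mean of the DNA replication genes (0.477). Leukemia 8 was low in Timp3 (0.528) and Fabp4 (0.524). Leukemia 9 was high in Scn3a (0.555) and Garem1 (0.54). Leukemia 10 was high in Sim1 (0.625) and low in Sh2d1b1 (0.548) and Trim12a (0.547).

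Among preleukemic arrays, array 3 was high in Cd3g (0.802), Siglech (0.711), Rag2 (0.587) and the means of the dendritic-cell genes (0.687) and the NK and cytotoxic genes (0.629). The mean of the NK and cytotoxic genes was 7.49 there and between 5.92 and 6.5 on the other preleukemic arrays. Array 2 was high in Cdh17 (0.663) and low in Garem1 (0.57), array 1 was high in Ctsg (0.598), and array 7 was low in Ly6d (0.586).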

How the results depend on the processing

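The calls of single genes depended on the measure of deviation, and the shift of SDs did not reverse under any alternative run. The 86 calls of greater and 23 of smaller spread became 8 and 1 among genes with a mean above 7 in both groups, 135 and 35 after repeated quantile normalization, and 198 and 35 with all 24 arrays in the fit. Deviations from the group median gave 3 and 0, squared deviations 1 and 1, eBayes with trend and robust 0 and 0 (2501 and 772 at an unadjusted p under 0.05), and log2 deviations 1316 and 101. Without leukemias 1 and 2 there were 192 calls of greater spread, and without preleukemic arrays 1 and 4 there were 6 in each direction. With the replicate number as a block, though the numbers do not pair the samples and 0 of 7 preleukemic arrays correlated best with their own number, 16 and 0 were called. Leaving out single arrays gave 20 to 179 calls of greater and 10 to 31 of smaller spread. The cause of these shifts was not tested. The alternatives with arrays 1 and 2 or 1 and 4 left out and with log2 deviations were added after the data were seen.

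The median log2 ratio of SDs, 0.38, was 0.2 with no filter on dim genes, 0.23 without leukemias 1 and 2 and 0.28 to 0.44 without single arrays. Genes with a leukemia that stood apart, 320, numbered 97 above a mean of 7, 791 at a gap of 0.5, 86 at a gap of 2, 201 without leukemias 1 and 2 and 271 to 390 without single arrays. The log2 SD ratio of Pax5, 3.74, was 3.02 to 4.23 without single arrays, and the limma fit left its adjusted p at 0.19. Of 19 called genes in the text, 5 lost the call with no filter, 18 with median or squared deviations, 19 with trend and robust, and 16 with the replicate block. Above a mean of 7, 4 of the 19 were tested and 2 kept the call. No named call reversed in direction in any of these fits. The number of arrays limits the precision, and dim genes are compressed by RMA.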
